A study of Mus musculus with 18 samples.

Results

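Cathepsins are the proteases of the lysosome, and several of them are also released from cells. The cathepsins measured here are made as inactive precursors and belong to the papain-like cysteine proteases. Cathepsin K (Ctsk) is a collagenase and elastase best known from the bone-resorbing osteoclast. Cathepsin S (Ctss) remains active at neutral pH, degrades elastin, and in antigen presenting cells trims the invariant chain from class II molecules. Cathepsin C (Ctsc), or dipeptidyl peptidase I, removes dipeptides and thereby activates the granule serine proteases of neutrophils, mast cells and cytotoxic lymphocytes. Cathepsin B (Ctsb) and cathepsin H (Ctsh) take part in general protein turnover in lysosomes. In the wall of the aorta elastin and fibrillar collagen carry the load, so proteases that cut them are a long-standing subject of aneurysm research.

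The members were all probes with a symbol of the form Cts followed by 1 letter among those that the study's gene lists pair with a probe of its mouse array. There were 6 probes of 5 genes, out of 1549 named probes (1342 genes) and 46624 probes in all. Ctss was read by probe scl22880.8.1_176-S, Ctsk by scl22881.8.1_12-S, Ctsb by scl0013030.1_227-S and Ctsh by scl36630.14.1_50-S. Ctsc had 2 probes, scl000253.1_401-S (probe 1) and scl32422.10_62-S (probe 2). Other cathepsins have no named probe here and were not analysed. The study listed these probes because they differed by over 2-fold on these same arrays, in comparisons given beside each result, so every test below describes the arrays and is not independent evidence. The listed differences nearest to that limit were those of Ctsc probe 1 between AAA and no AAA (1.01 on the log2 scale, where 2-fold is 1) and of Ctsh between AAA and saline (1.03).

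The data are 18 Illumina bead arrays, each of RNA from the aorta of 1 male ApoE-/- mouse, a strain without apolipoprotein E that is prone to atherosclerosis. Mice were 13 to 14 weeks old at the start and received, from a subcutaneous pump over 4 weeks, angiotensin II at 1.44 μg/kg/min or saline. Of the infused mice 5 developed abdominal aortic aneurysm (AAA) and 7 did not (no AAA, the aneurysm resistant group), and 6 mice received saline. The RNA came from the aorta between arch and iliac bifurcation, so in the AAA group it mixes the aneurysm with the rest of the vessel. All 3 groups lack ApoE, and no wild-type mouse enters these comparisons. Each BeadChip carries 6 arrays: BeadChip 1 held the saline arrays, BeadChip 2 held no AAA 1 to 6, and BeadChip 3 held AAA 1 to 5 and no AAA 7. Saline and infused mice therefore lie on different BeadChips, and for them group and BeadChip cannot be told apart. The sample labels and the deposited matrix of ratios disagree on which array 12 of the 18 samples belong to. The labels were followed, since they gave 530 of 530 listed folds between AAA and no AAA within 2%, against 0 under the columns of that matrix.

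Levels are given as log2 of a probe's signal over the median signal of its array, which lay between 108.1 and 142.6. The cathepsin probes gave signals of 624 to 30213 and were detected on all 18 arrays. Each value is the mean of 21 to 55 beads, with a standard error over beads of 3.48 to 8.45% of the signal. Levels of different probes are not compared, since probes differ in how well they bind. The 6 named smooth muscle markers, among them actin Acta2, were detected on all 18 arrays. Groups were compared with limma over the 21434 probes detected on at least 5 arrays, with Benjamini-Hochberg adjusted p values, and a probe was called at an adjusted p under 0.05.

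Ctsk and Ctss are neighbours on mouse chromosome 3 on the same strand, with 1 predicted gene (Gm40096) between them in the RefSeq annotation of GRCm38.p6. The 250 bases before the start of each gene are shown, because this pair was upregulated in AAA and lies side by side. Capitals mark GAGGAA, a core motif of PU.1 and other ETS factors, or its reverse complement TTCCTC, and GGGCGG, a motif of Sp1. The first sequence is chr3:95498960-95499209 and the second chr3:95526536-95526785, both on the plus strand.
Ctsk: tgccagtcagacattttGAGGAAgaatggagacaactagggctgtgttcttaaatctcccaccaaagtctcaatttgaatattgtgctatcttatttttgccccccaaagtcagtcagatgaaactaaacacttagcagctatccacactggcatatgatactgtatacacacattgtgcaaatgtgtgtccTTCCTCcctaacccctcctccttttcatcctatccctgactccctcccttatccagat
Ctss: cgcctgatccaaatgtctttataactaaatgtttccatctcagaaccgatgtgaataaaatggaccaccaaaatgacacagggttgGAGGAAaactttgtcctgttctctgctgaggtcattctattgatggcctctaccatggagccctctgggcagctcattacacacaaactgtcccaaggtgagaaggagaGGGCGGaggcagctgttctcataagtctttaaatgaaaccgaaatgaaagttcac

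The Ctsk sequence held GAGGAA 2 times, beginning 233 and 58 bases before the start, the second on the minus strand. The Ctss sequence held it 1 time, beginning 164 bases before the start, and held GGGCGG 55 bases before it. Both motifs are common: 23.3% of the 32851 promoters in the table held GAGGAA and 32.7% held GGGCGG on either strand. The E-box CACGTG (6.02% of promoters) was searched in the same way and was in neither sequence. The same was found for the E-box variant CATGTG (12.3%), and for TGANTCA, the AP-1 motif (6.75%). These matches describe the letters only.

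All 6 cathepsin probes were ordered saline, no AAA, AAA by their group means. In the no AAA group 5 of the probes rose over saline, by 1.44 to 2.17 fold (35% of all tested probes rose), and Ctsc probe 1 missed the threshold (1.29-fold, adjusted p = 0.057). Ctsk, Ctss and Ctsc rose by 1.64 to 2.30 fold between no AAA and AAA (10.8% of all tested probes rose), whereas Ctsb and Ctsh were 1.21 and 1.22 fold higher in AAA, with adjusted p values of 0.13 and 0.15 that missed the threshold. Whether the step from no AAA to AAA differed between members was not tested. Against saline all 6 probes rose in AAA, by 2.04 to 4.84 fold (30.5% of all tested probes rose). In whole aorta a change in the number of cells of a type and a change in RNA per cell cannot be told apart.

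**Figure D1:**
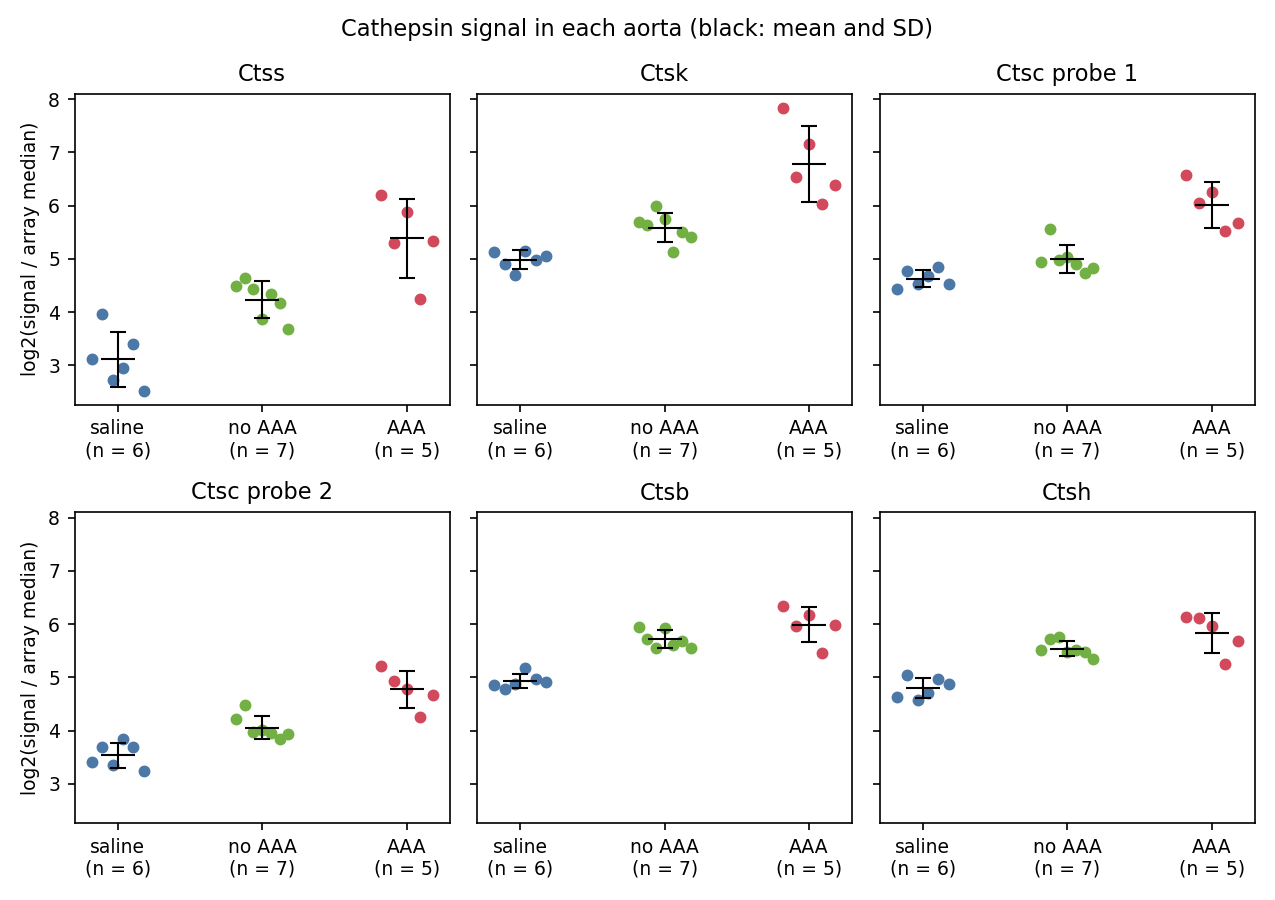
Each point is 1 mouse, plotted as log2 of the signal over the array median for each cathepsin probe in the saline (n = 6), no AAA (n = 7) and AAA (n = 5) groups, with black bars for mean and SD. The group means climb from saline to no AAA to AAA in all 6 panels, and the AAA points spread over up to 1.94 log2 units.

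Cathepsin S showed the largest estimated difference from saline among the cathepsins, but a larger rise than that of Ctsk was not shown (given below). In saline the lowest, median and highest Ctss levels were 2.53, 3.04 and 3.97, and in no AAA they were 3.68, 4.35 and 4.64. In AAA 1 to AAA 5 the levels were 6.20, 5.29, 5.87, 4.25 and 5.34. The AAA arrays all lay above the saline arrays, but AAA 4 lay inside the no AAA range, and saline 2 lay above 2 of the no AAA arrays. Ctss was 2.28 ± 0.29 (SE) higher in AAA than in saline on the log2 scale (limma, adjusted p = 9.2e-06), or 4.84-fold, with a 95% confidence interval of 3.18 to 7.37 fold. In the no AAA group it rose by 1.12 ± 0.27 over the saline controls (adjusted p = 0.0024). Between AAA and no AAA it rose by 1.16 ± 0.28 (adjusted p = 0.0071), or 2.23-fold. The steps from saline to no AAA and from no AAA to AAA were of like size, with intervals of 0.56 to 1.68 and 0.57 to 1.74 on the log2 scale. Ctss was the only cathepsin probe that the study listed in all 3 comparisons.

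Cathepsin K was the only probe for which AAA and no AAA did not overlap. Its difference between these groups was close to that of Ctss, and which of them was larger changed with the arrays left out and with BeadChip in the model. Its levels in AAA 1 to AAA 5 were 7.84, 6.54, 7.15, 6.03 and 6.39. In no AAA the lowest, median and highest levels were 5.14, 5.63 and 6.00, and in saline 4.69, 5.02 and 5.15. The gap between AAA 4 and the highest no AAA array (no AAA 3) was 0.03 on the log2 scale, so the separation of the groups was narrow. Ctsk rose by 1.20 ± 0.22 between no AAA and AAA (limma, adjusted p = 0.0013), or 2.30-fold, with a 95% confidence interval of 1.67 to 3.18 fold. Its exact permutation p of 0.0025 (two-sided, 5 against 7 arrays) is the smallest this design can give. Against saline it rose by 1.80 ± 0.23 (adjusted p = 9.7e-06), or 3.49-fold. The study listed Ctsk in these 2 comparisons.

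In no AAA, 6 of 7 arrays lay above every saline array for Ctsk, and no AAA 5 lay just below the highest of them. The difference of 0.60 ± 0.21 passed the threshold (limma, adjusted p = 0.028), but this call was lost under several other settings. With quantile normalisation it was 0.42 with an adjusted p of 0.11. Without saline 3 it was 0.54 (adjusted p = 0.064) and without no AAA 3 it was 0.53 (adjusted p = 0.056).

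Cathepsin C was measured by its 2 probes. Probe 1 read 6.57, 6.04, 6.26, 5.52 and 5.67 in AAA 1 to AAA 5, and 4.74, 4.95 and 5.57 as lowest, median and highest of no AAA. Its saline levels were 4.44, 4.61 and 4.85 in the same order. A single mouse without an aneurysm, no AAA 2, reached into the AAA range. Probe 2 read 5.22, 4.93, 4.79, 4.26 and 4.68 in AAA 1 to AAA 5. Its lowest, median and highest levels were 3.85, 3.97 and 4.48 in no AAA and 3.24, 3.55 and 3.84 in saline. For this probe too no AAA 2 was the highest array without an aneurysm, and it lay above AAA 4.

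Ctsc rose between no AAA and AAA by 1.01 ± 0.16 with probe 1 (limma, adjusted p = 0.00049) and by 0.72 ± 0.15 with probe 2 (adjusted p = 0.0025). Against saline the probes rose in AAA by 1.38 ± 0.17 and 1.24 ± 0.15 (adjusted p = 6.2e-06 and 7.2e-06). Between no AAA and saline the call differed by probe. Probe 2 rose by 0.52 ± 0.14 (adjusted p = 0.0057), while the difference of probe 1 was 0.37 ± 0.15 (adjusted p = 0.057), and 0.17 (adjusted p = 0.37) with quantile normalisation. The study listed probe 1 in both comparisons with AAA and probe 2 in AAA against saline only. The difference between the probes within an array, probe 1 minus probe 2, exceeded that of no AAA by 0.30 ± 0.10 (SE) in AAA, with an exact permutation p of 0.015 that became 0.091 after adjustment over 6 such tests. An unequal response of the 2 probes was therefore not shown.

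Cathepsins B and H are described together. Ctsb read 6.35, 5.97, 6.17, 5.47 and 5.98 in AAA 1 to AAA 5, with lowest, median and highest levels of 5.55, 5.68 and 5.96 in no AAA and 4.79, 4.90 and 5.17 in saline. Ctsh read 6.14, 6.12, 5.97, 5.25 and 5.69 in the AAA arrays, 5.34, 5.51 and 5.76 in no AAA and 4.58, 4.79 and 5.04 in saline. For both genes every infused mouse, with or without an aneurysm, lay above every saline control, and the 2 infused groups overlapped.

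Ctsb rose by 0.78 ± 0.12 in no AAA (limma, adjusted p = 4.8e-05) and by 1.06 ± 0.13 in AAA (adjusted p = 6.3e-06) against saline. Ctsh rose by 0.74 ± 0.13 (adjusted p = 0.00019) and 1.03 ± 0.14 (adjusted p = 1.8e-05). The differences between AAA and no AAA were 0.28 ± 0.12 for Ctsb and 0.29 ± 0.14 for Ctsh, with 95% confidence intervals of 0.02 to 0.54 and 0.01 to 0.58. These intervals leave room for a difference of up to 1.45-fold for Ctsb and 1.49-fold for Ctsh. Without AAA 4 they were 0.41 (adjusted p = 0.0099) and 0.44 (adjusted p = 0.010), and both genes passed the threshold. The study listed both only in AAA against saline.

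**Figure D2:**
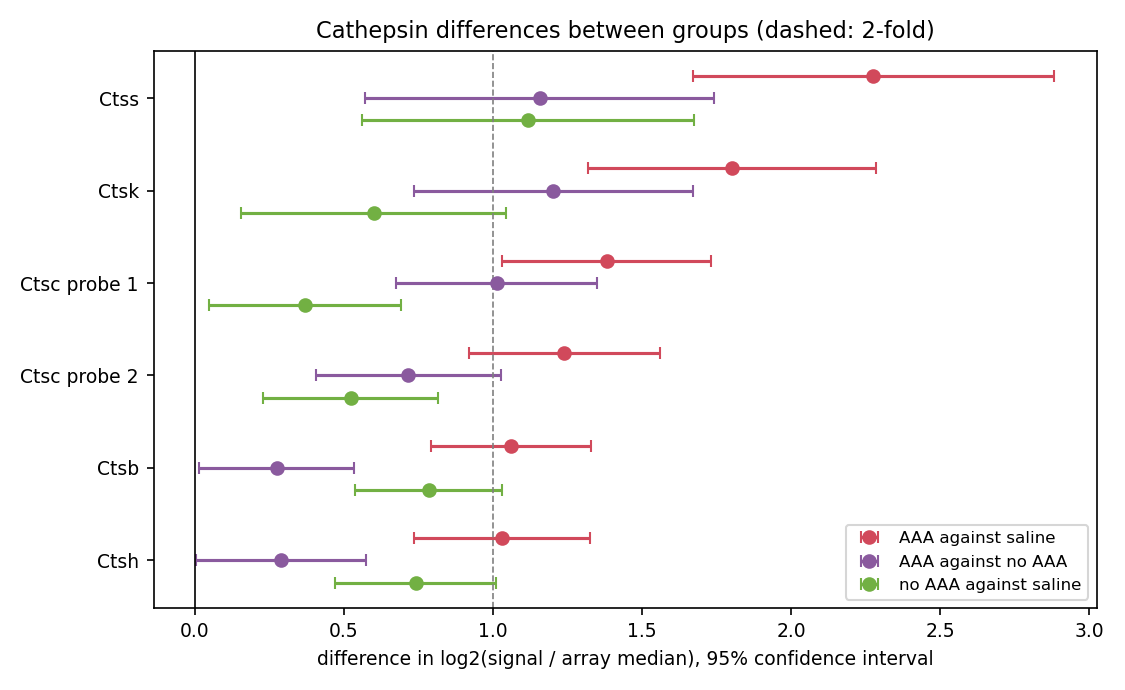
Differences in log2(signal / array median) between groups are plotted for the 6 cathepsin probes, with bars for the 95% confidence interval from limma and a dashed line at 2-fold. Ctss lies farthest to the right for AAA against saline (2.28), and for Ctsb and Ctsh alone the interval of AAA against no AAA comes within 0.02 of 0.

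Expressed as a share of the difference between AAA and saline, the difference between no AAA and saline was 74.0% for Ctsb and 71.8% for Ctsh. It was 49.2% for Ctss, 33.3% for Ctsk, and 26.7 and 42.2% for the Ctsc probes. Over 5 scalings the share of Ctsc probe 1 ran from 14.4 to 30.4% and that of Ctsc probe 2 from 32.7 to 45.4%. The range was 26.2 to 35.9% for Ctsk, 45.4 to 50.9% for Ctss, 71.4 to 76.2% for Ctsb and 68.6 to 74.2% for Ctsh. These shares come from the same group means as the tests and carry no test of their own.

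The counts were read against all tested probes. Between AAA and no AAA 4 of 6 cathepsin probes (3 of 5 genes) rose, where 10.8% of all tested probes did. Between AAA and saline 6 of 6 rose, against a background of 30.5%, and between no AAA and saline 5 of 6 rose, against 35%. None of the 6 fell in any comparison, where 8.46, 9.22 and 10.1% of all tested probes fell. The AAA arrays lay wholly above the no AAA arrays for 1 of 6 probes (background 3.98%) and above the saline arrays for 6 of 6 (16.2%), and the no AAA arrays lay above the saline arrays for 3 of 6 (14.7%). Since the members were picked by the study for differences on these arrays, nothing about cathepsins as a group follows from these counts. The median difference over all tested probes was -0.01 between AAA and no AAA, 0.13 between AAA and saline and 0.15 between no AAA and saline. Over 5 scalings the values against saline ran from -0.07 to 0.17 for AAA and from -0.02 to 0.20 for no AAA. Relative to that median, under these scalings, Ctss differed between no AAA and saline by 0.86 to 1.03, Ctsb by 0.54 to 0.65, Ctsh by 0.49 to 0.61 and Ctsk by 0.35 to 0.47. The Ctsc probes differed least, by 0.10 to 0.24 for probe 1 and 0.26 to 0.39 for probe 2. Among the 5 scalings, the array median and the median of probes detected on all arrays give the same relative value by construction.

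The 2 infused groups were also compared with BeadChip in the model, where no AAA 7 is the sole link between them. The estimate then compares the AAA arrays with no AAA 7 alone. That array had the lowest mean cathepsin deviation of its group (-0.23). The differences between AAA and no AAA were then 1.71 ± 0.50 for Ctss, 1.38 ± 0.49 for Ctsk and 1.19 ± 0.34 and 0.85 ± 0.29 for the Ctsc probes. All 4 were larger than before, but they rest on that 1 low array. With adjusted p values of 0.054 to 0.095 (limma), none of these 4 passed the threshold. Within BeadChip 3 alone the differences were the same, with adjusted p values of 0.19 to 0.27, over 5 arrays against 1.

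The AAA mice varied more than the others. For every cathepsin probe the SD over mice was largest in AAA, between 0.33 (Ctsb) and 0.74 (Ctss), against 0.15 to 0.35 for no AAA mice and 0.13 to 0.51 for saline controls. The median bead error was 0.07 to 0.09 on the same log2 scale, so the spread over mice was 1.75 to 10.7 times the bead error. The spread had a shared order: AAA 1 was the highest AAA array for 6 of 6 probes and AAA 4 the lowest for 6 of 6. The methods' t-test, which lets groups differ in spread, gave adjusted p values of 0.059 to 0.13 for the 4 probes called between AAA and no AAA.

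**Figure D3:**
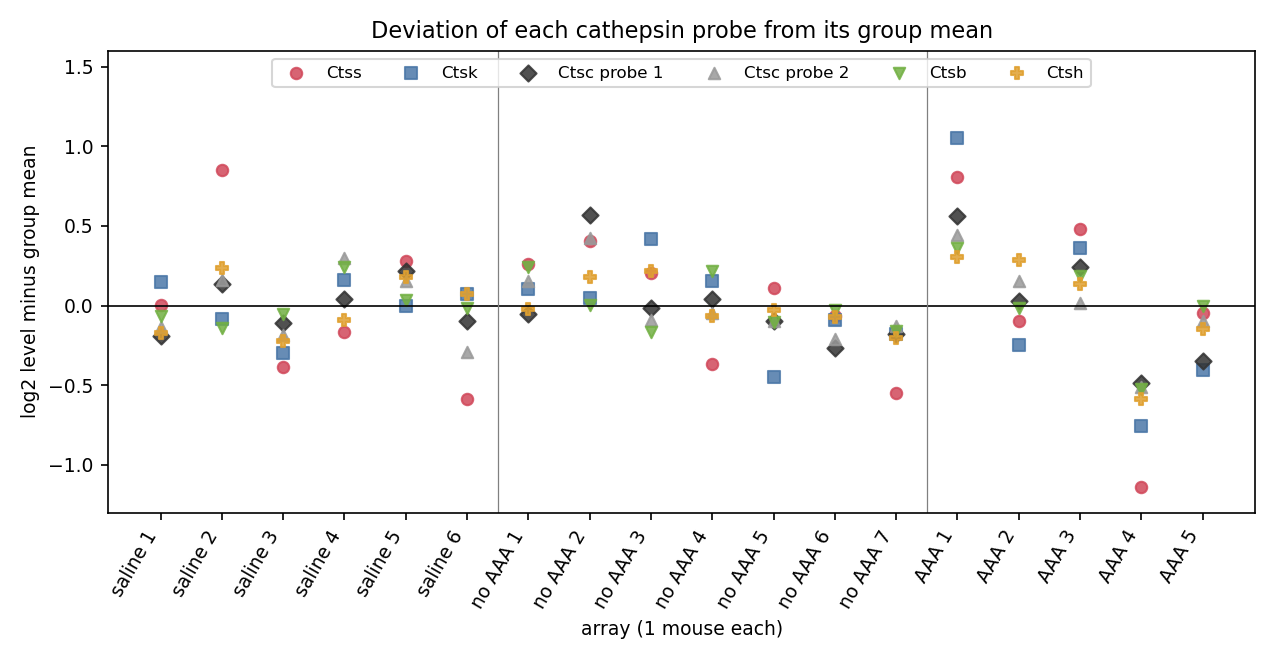
Each symbol is 1 cathepsin probe on 1 array, plotted as its log2 level minus the mean of its group, with arrays in label order along the horizontal axis. All 6 symbols of AAA 1 lie above 0 and all 6 of AAA 4 lie below it, with mean deviations of 0.59 and -0.67, while the mean of every other array lies between -0.23 and 0.27.

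Leaving out either of these mice moved the size of the differences without reversing any. Without AAA 1 the difference between AAA and no AAA was 0.94 for Ctsk and 0.96 for Ctss. Without AAA 4 it was 1.39 and 1.44. Both genes passed the threshold either way.

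**Figure D4:**
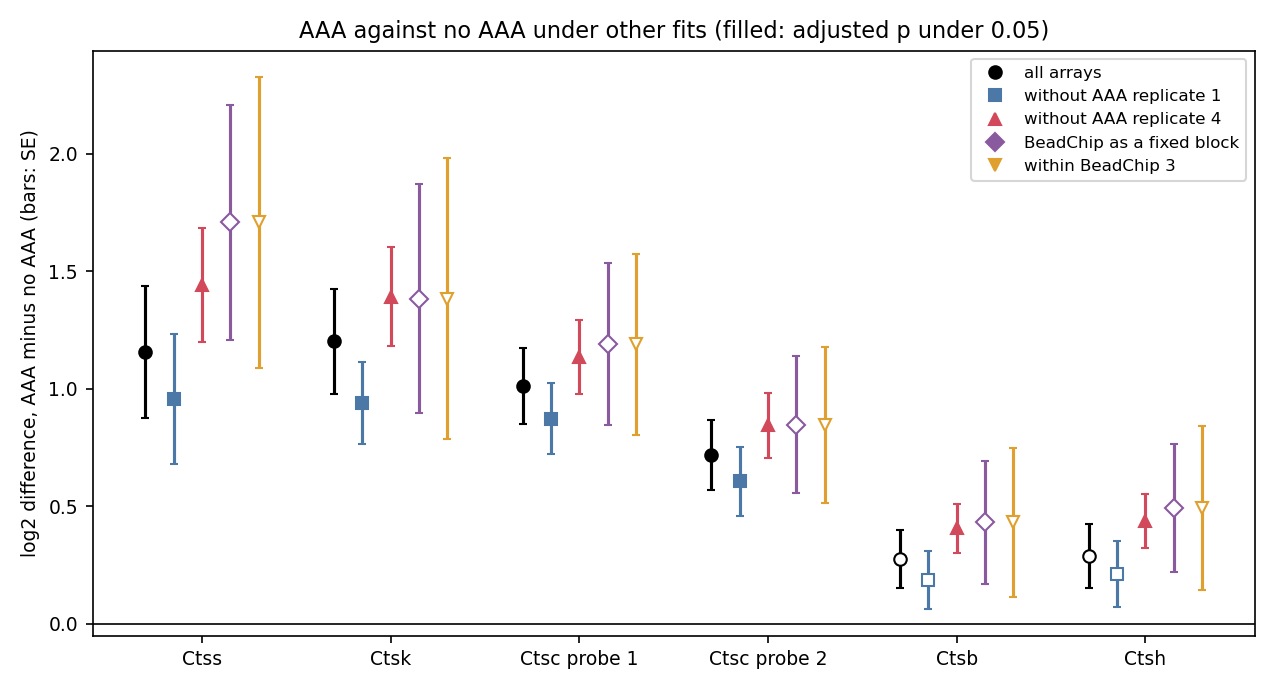
The log2 difference between AAA and no AAA, with its standard error, is plotted for each cathepsin probe with all arrays, without AAA 1, without AAA 4, with BeadChip as a block, and within BeadChip 3. Filled symbols passed an adjusted p of 0.05: Ctsb and Ctsh are filled only without AAA 4, and no probe is filled in either BeadChip fit.

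The macrophage markers, like the cathepsins, climbed from saline to no AAA to AAA, judged by the group median of their summed level. These and the other genes below are named only because the study listed them as different on these same arrays, so their counts were largely set in advance. All 16 named markers of 19 on the list rose between no AAA and AAA, as did 10.8% of all tested probes, with a median of 1.27 against -0.01 over all of them, and their summed level (signal over array median) spanned 239 to 470 for saline, 429 to 762 for no AAA and 700 to 1949 for AAA. Against saline 8 of these 16 markers rose in no AAA, where 35% of all tested probes did. AAA 1 had the highest macrophage marker sum (1949) and AAA 4 the lowest AAA sum (700), as for each cathepsin probe. The order of the AAA arrays between them varied by probe. The sum of the 6 named fibroblast markers spanned 119 to 150 for saline arrays, 203 to 255 for no AAA and 298 to 605 for AAA, again with AAA 1 highest and AAA 4 lowest. That of the smooth muscle markers spanned 70.4 to 101, 171 to 210 and 55.1 to 119 in the same order. All 6 named smooth muscle markers fell between no AAA and AAA (median -1.06), where 8.46% of all tested probes fell. In no AAA all 6 rose over saline (median 1.17), where 35% of all tested probes rose, and in AAA 0 of them were called against saline. Fat cell markers differed in the comparisons against saline. Their sum, over 9 named of 10, spanned 1305 to 1831 for saline, 180 to 852 for no AAA and 321 to 727 for AAA. Against saline 9 of 9 fell in AAA, where 9.22% of all tested probes fell. In no AAA 8 of 9 fell, where 10.1% of all tested probes fell. Between no AAA and AAA 3 of 4 named neutrophil markers, 1 of 2 T cell markers and 3 of 4 B cell markers rose. Against saline 1 marker of each of these lists rose in AAA, where 30.5% of all tested probes did. In no AAA 0 of them rose over saline, where 35% of all tested probes did, and 1 B cell marker fell. Their median differences between no AAA and saline were -0.82, -0.27 and -1.12 in the same order. B cell markers reached 619 in saline 2, the saline array with the highest Ctss level, against 19.0 to 226 in the other saline arrays. Saline 2 was also the highest saline array for the macrophage (470) and T cell (13.9) marker sums. None of these named markers was undetected on all arrays of a group. The part of any of these cells in the cathepsin differences was not tested.

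The relation between Ctsk and Ctss was examined across arrays. With group means taken out, r over all 18 arrays, AAA included, was 0.61, which is given as a description. Both genes varied most in AAA, so the AAA arrays weigh more in this r than the others. Over the 7 no AAA arrays Pearson's r was 0.22 (exact permutation p = 0.63, adjusted 0.81) and Spearman's rho 0.29 (p = 0.56, adjusted 0.81). Over the 6 saline arrays r was -0.06 and rho -0.14, with exact permutation p values of 0.81 and 0.80 (both 0.81 after adjustment over 4 relations). Without the 2 arrays farthest from the Ctsk median r was 0.43 in no AAA and -0.74 in saline, so no relation was shown in either. The AAA group, with 5 arrays, was below the 6 arrays required for a correlation of its own. Ctss minus Ctsk within an array was -1.87 ± 0.55 (SD) in saline, -1.35 ± 0.39 in no AAA and -1.40 ± 0.30 in AAA. The change of 0.52 ± 0.27 (SE) between no AAA and saline had an exact permutation p of 0.075 (0.15 adjusted). Between AAA and saline the change was 0.47 ± 0.26 (exact permutation p = 0.12, 0.18 adjusted). Between AAA and no AAA it was -0.05 ± 0.20 (p = 0.83, exact permutation, also 0.83 adjusted). An unequal response of Ctss and Ctsk was therefore not shown in any comparison.

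The genes whose levels were most like each cathepsin differed between members. Likeness was Pearson's r over 18 arrays after the group means were taken out, among 1335 other named genes. It is a description, since arrays share their depth and their mouse's cell make-up. Every cathepsin probe varied most in AAA, so the AAA arrays weigh more in r than the others. For Ctsk the 5 closest were Ccn4 (r = 0.95), Thbs2 (0.94), Galnt10 (0.93), Cemip (0.92) and Rab31 (0.92). Ccn4 and thrombospondin Thbs2 encode proteins of the extracellular matrix, and Cemip takes part in the breakdown of hyaluronan. For Ctss the closest genes included Bcl2a1d (0.96), Mpeg1 (0.95), Bcl2a1a (0.95) and Bcl2a1b (0.95). Mpeg1 encodes a pore-forming protein of macrophages. The Bcl2a1 genes are near-identical copies, so their probes may read each other.

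For Ctsc probe 1 the closest genes were Fcgr3 (0.93), Ms4a6d (0.92), Tlr13 (0.91), Lair1 (0.91) and Kcnk13 (0.91), of which Fcgr3 encodes an Fc receptor, Tlr13 a sensor of bacterial RNA and Lair1 an inhibitory collagen receptor of leukocytes. Ctsb was closest to Hexa (0.86), a lysosomal hexosaminidase subunit, followed by Gpr35 (0.84), 7420404O03Rik (0.83), Cyp1b1 (0.82) and Arrb2 (0.81). Ctsh was closest to Oas1g (0.89), Pilra (0.88), Fen1 (0.87), Clec4a1 (0.87) and Ifi30 (0.87), the lysosomal thiol reductase of antigen processing. With group means left in, r was between 0.75 and 0.99 for each of these genes. Among the cathepsins themselves the 2 Ctsc probes were most alike (0.86), Ctss was closest to Ctsh (0.79), and Ctsk to Ctsb (0.72). The pair least alike was Ctsb and Ctsh (0.50).

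Other lysosomal genes were named in part. As background for the counts that follow, 10.8% of all tested probes rose between no AAA and AAA, 30.5% between saline and AAA, and 35% between saline and no AAA. The median differences over all tested probes were -0.01, 0.13 and 0.15. Since the study's own lists supplied the names, nothing about a list follows from its count. Of 37 lysosomal proteases and hydrolases 11 were named, and 11 rose between no AAA and AAA, with a median of 0.85. Legumain (Lgmn), the asparaginyl endopeptidase that processes cathepsin precursors, rose by 0.86 ± 0.15 (limma, adjusted p = 0.00086). Ifi30 rose by 1.05 ± 0.19 (adjusted p = 0.00099). Against saline 7 of the 11 rose in no AAA, Lgmn by 0.60 ± 0.14 (adjusted p = 0.0025), while Ifi30 differed by 0.35 ± 0.18 (adjusted p = 0.12). Of 27 genes of the lysosomal membrane and its acidification 7 were named and 7 rose in AAA against no AAA, including Tcirg1, a subunit of the proton pump (1.00 ± 0.19, adjusted p = 0.0014). In no AAA against saline 2 of 7 rose, where 35% of all tested probes did.

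Class II antigen presentation, where cathepsin S acts, had 9 of 15 genes named. All 9 rose in AAA against no AAA, with a median of 1.06, and 1 of 9 rose in no AAA against saline, where the median was 0.05. Cd74, the invariant chain cut by cathepsin S, rose by 1.30 ± 0.26 between no AAA and AAA (limma, adjusted p = 0.0018). Between no AAA and saline Cd74 differed by 0.04 ± 0.24 (adjusted p = 0.90), while Ctss rose by 1.12 in that comparison. The difference between these 2 genes was not tested. The serine proteases that cathepsin C activates had no named probe among 8 genes.

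Of 17 genes on a list of cathepsin inhibitors 3 were named, and their patterns were unlike each other. Kininogen (Kng1), whose cystatin domains inhibit cysteine proteases, fell by 2.07 ± 0.28 between saline and no AAA (limma, adjusted p = 1.6e-05). In AAA Kng1 was close to saline (-0.03 ± 0.30), so that it rose by 2.04 ± 0.29 between no AAA and AAA (adjusted p = 0.00031). Serpina3g, a serpin that inhibits cysteine cathepsins in mouse, rose by 2.33 ± 0.44 between no AAA and AAA (adjusted p = 0.0013) and differed by -0.04 ± 0.41 between no AAA and saline. Serpinb6b was on the list, but whether it inhibits any of the cysteine cathepsins measured here was not examined. It rose against saline in both infused groups, by 0.79 ± 0.17 in AAA and 1.06 ± 0.16 in no AAA (limma, adjusted p = 0.0014 and 5e-05).

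The other elastin and collagen cutting enzymes, the metalloproteinases, had 6 of 9 genes named. Of these 5 rose between no AAA and AAA, with a median of 1.28, and 6 rose in AAA against saline. Mmp14, the membrane collagenase, rose by 1.23 ± 0.18 (limma, adjusted p = 0.00031) and the gelatinase Mmp9 by 1.71 ± 0.34 (adjusted p = 0.0018). Macrophage elastase (Mmp12) had a difference of 1.12 ± 0.40 that missed the threshold (limma, adjusted p = 0.053). Like Ctss, Mmp12 rose in no AAA against saline, by 1.88 ± 0.38 (adjusted p = 0.0006). In that comparison 3 of the 6 named metalloproteinases rose, where 35% of all tested probes did. Mmp14 was among them, at 0.77 ± 0.17 (limma, adjusted p = 0.0014). Among the substrates 13 of 17 genes were named, and 12 rose between no AAA and AAA with a median of 0.64. Elastin itself (Eln) was the exception at 0.47 ± 0.23 (limma, adjusted p = 0.16). Over saline Eln rose by 1.42 ± 0.24 in AAA (adjusted p = 0.00012) and by 0.95 ± 0.22 in no AAA (adjusted p = 0.0018). Of the 13 substrates 11 rose in no AAA against saline, where 35% of all tested probes did. Col1a1, a chain of type I collagen, rose by 1.66 ± 0.22 between no AAA and AAA (adjusted p = 0.00021). Of 14 osteoclast genes 4 were named (Tcirg1, Mmp9, Tyrobp and Trem2), and all 4 rose between no AAA and AAA. All 4 are counted above in other lists, so they add no separate count. Tcirg1 is with the lysosomal membrane, Mmp9 with the metalloproteinases, and Tyrobp and Trem2 with the macrophage markers.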

How the data were processed

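RNA of 18 aortas was hybridised by the authors to Illumina Mouse WG-6 BeadChips, 1 mouse per array and none pooled, with RNA integrity numbers of 7.5 to 8.1 per the labels. The authors summarised beads with BeadStudio without normalisation. They deposited an average signal intensity, an intensity error over beads, the number of beads (another value) and a detection score for each probe and array. Of the columns per array 72 were used and 72 were not used here. Among 13 repeated probe IDs, 4 bacterial controls were dropped and lines of the rest were averaged. The deposited matrix of ratios was set aside: under the sample labels, 12 of 18 columns carry another array's values. Gene names came from the study's additional lists (1549 of 1589 listed probes named), updated through RefSeq. Where a gene had several probes, that with the highest mean was taken, except for the cathepsins.

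Signals were divided by the array median and expressed as log2, with no pseudocount. Probes with a detection score over 0.95 on at least 5 arrays (21434) entered a limma model (version 3.58.1, R 4.3.3) with 3 group means and a variance trend in eBayes, tested on simulated data. Exact permutation tests (two-sided) used scipy 1.17.1. The number of arrays limits the precision. Alternatives were quantile, normexp and neqc processing, other scalings and filters, array weights, the methods' t-test, BeadChip or replicate blocks, and each array left out. Promoter sequences are from RefSeq, GRCm38.p6, found for 3 of the 5 genes, and Ctsc's is not shown. Members and gene lists were chosen with earlier results of these data known. Named genes were all members, the 5 genes most like each (not all are reported here), and genes of the lists that bear on cathepsin function. Serpinb6b and Tyrobp were named after their values were seen.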

Additional observations from a re-analysis of the deposited data

Results flagged for a closer look

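For Ctsc probe 1 the array no AAA 2, at 5.57, stood apart from the other no AAA arrays, the next of which was at 5.04 and the lowest at 4.74. The gap made up 0.635 of the group's range, above Dixon's 95% critical value for 7 samples. Without this array the difference between no AAA and saline was 0.27 in place of 0.37, with an adjusted p of 0.13 (limma). The 6 probes were tested in 3 groups each, 18 tests in all, and chance flags about 1 in 20. The same mouse had the highest macrophage marker sum of the no AAA group (762), and the part of these cells in the value was not tested.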

How the results depend on the processing

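No cathepsin difference changed direction in any of the 606 alternatives computed, and 569 kept their side of the threshold. Many of these alternatives leave the difference as it was by design, such as leaving out an array of the group not compared. The same holds for another filter or another test on the same values. For these the direction was fixed in advance. For Ctsk and Ctss between AAA and no AAA, significance was lost with the methods' t-test after adjustment (1.20, adjusted p = 0.12, and 1.16, adjusted p = 0.13), with BeadChip as a fixed block (1.38 and 1.71) and within BeadChip 3 (1.38 and 1.71). Their ranges on leaving out each array were 0.94 to 1.39 and 0.96 to 1.44. For Ctsk between no AAA and saline it was lost with quantile normalisation (0.42), scaling by probes detected on all arrays (0.43), neqc (0.44), no filter (0.60, adjusted p = 0.051), BeadChip as a random block (0.59, adjusted p = 0.066) and at the methods' 2-fold threshold (0.60), and ranged from 0.53 to 0.67 on leaving out each array. The remaining ranges were 1.54 to 1.99 for Ctsk and 2.07 to 2.56 for Ctss in AAA against saline, and 1.00 to 1.29 for Ctss in no AAA against saline. Between no AAA and saline Ctsc probe 2 lost its call with quantile normalisation and scaling by probes detected on all arrays (0.33 and 0.35, adjusted p = 0.052 for both). Ctsc probe 1, at 0.37, fell to 0.17 with quantile normalisation, 0.19 with that scaling and 0.18 with neqc, and gained a call with normexp (0.44, adjusted p = 0.027) and array weights (0.40, adjusted p = 0.019), among others. Over all tested probes 4123, 8517 and 9653 were called between AAA and no AAA, AAA and saline, and no AAA and saline. At the methods' threshold, 2-fold and an unadjusted p, these were 529, 1193 and 654. For AAA against no AAA there were 796 with their t-test adjusted, 1484 with BeadChip as a block, 12 within BeadChip 3, and 2708 (without AAA 3) to 4451 on leaving out each array. The other ranges were 7574 to 8774 and 8436 to 9963. Scaling by probes detected on all arrays turned the split of higher to lower calls against saline from 6540 and 1977 to 2903 and 4720 in AAA, and from 7498 and 2155 to 2940 and 4082 in no AAA. Quantile normalisation gave 2071 and 2318 between AAA and no AAA, in place of 2310 and 1813. Same-numbered arrays did not deviate together (correlations of -0.19 to 0.29), so the numbers were not taken as pairs, and a replicate block, with 3058, 8317 and 9079 probes called, changed no cathepsin call.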
